A study of Mus musculus with 32 samples.

Results

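The 8 genes Drd1a, Tac1, Adora2a, Penk1, Ppp1r1b, Rgs9, Pde10a and Scn4b mark the projection neurons of the striatum, and they were followed here on arrays of mouse frontal cortex (FCtx), a tissue next to the striatum. They were chosen by name: every probe carrying one of these symbols was taken, which gave 9 probes for 7 genes among the 25697 probes and 18138 gene symbols of the table. Penk1 was not analysed here. The series compared 20 ethanol-treated mice with 12 controls, 1 Illumina MouseRef-8 v2.0 array per mouse, and both groups were female F1 hybrids of C57BL/6J and FVB/NJ. Ethanol-treated mice chose between water and 20% ethanol in daily 3 h sessions for 20 days and were killed 20 h after the last session, whereas controls are labelled untreated, and the ages of the mice are not given in the sources used here. The dissected tissue was the dorsal part of a rostral slab, cut above the white matter of the forceps minor and free of olfactory bulb by the study's protocol, so each array reads a piece of whole tissue. Chips 1 and 2 held 8 ethanol-treated mice each, chip 4 held 8 controls, and chip 3 held 4 of each, with the ethanol-treated mice at odd positions (A, C, E, G) and the controls at even ones (B, D, F, H). Mice are named by the labels' own codes, which start with A for ethanol-treated mice and with C for controls.

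Medium spiny neurons are the GABAergic output cells of the striatum and receive both glutamate from the cortex and dopamine from the midbrain. Those of the direct pathway carry the dopamine D1 receptor (Drd1a) and make substance P from Tac1, while those of the indirect pathway carry the adenosine receptor gene Adora2a and make enkephalin from Penk1. Dopamine signals in both through cyclic AMP to Ppp1r1b (DARPP-32), a protein that inhibits protein phosphatase 1 when phosphorylated. Rgs9 speeds the turn-off of inhibitory G proteins, Pde10a breaks down cyclic nucleotides, and Scn4b is an auxiliary subunit of voltage-gated sodium channels. None of these genes is confined to the striatum: Drd1a and Ppp1r1b, for example, are also expressed in deep-layer cortical neurons and Tac1 in some cortical interneurons.

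The probe sequences decide what each array value reads, and they are shown for the 2 genes where that matters most. Ppp1r1b had 3 probes on 1 transcript, starting at its positions 16, 1281 and 1609. The last of these was detected on all 32 arrays, and its final 30 bases hold the polyadenylation signal AATAAA, in capitals, near the end of the messenger RNA:
Ppp1r1b 3′ probe: gaacccctcctacgctgtAATAAAtctttg
The Tac1 probe starts at position 265 of its transcript and lies in the coding region, on the stretch that encodes substance P itself, so it reads the peptide's own coding sequence:
Tac1 probe: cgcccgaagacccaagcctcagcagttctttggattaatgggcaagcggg
The table places these probes at 98219052 to 98219101 on chromosome 11 and at 7506725 to 7506774 on chromosome 6, both on the plus strand, in a genome build that it does not name.

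The tissue label was checked against cortical genes. The cortical genes Slc17a7, Tbr1, Cux2 and Fezf2 were detected on all 32 arrays, whereas of 5 genes of striatal cholinergic neurons, Slc5a7, Slc18a3 and Gbx2 were detected on 0 arrays. Between 9480 and 11544 probes were detected per array (detection p below 0.01), and control C66 had both the fewest detected probes and the lowest median signal, 146 against 180 over all arrays. In bulk tissue, fewer cells of a type and less RNA per cell cannot be told apart.

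Of the receptors, only the D1 receptor rose above background on all arrays, and its signal was low. Before normalization the median signal of its probe was 245 (162 to 342), against 160 for the Adora2a probe. The Drd1a probe was detected on all 32 arrays, at log2 levels of 6.99 (lowest), 7.42 (median) and 7.73 (highest) in ethanol-treated mice and 7.17, 7.23 and 7.59 in controls. The ranges overlapped, and 13 of 20 ethanol-treated mice lay above the control median. The Adora2a probe was detected on 0 of 32 arrays and was not well above background anywhere, at 6.38 to 6.67 in ethanol-treated mice and 6.41 to 6.70 in controls. Drd2, the dopamine receptor of the same indirect-pathway neurons and no member of the set, was detected on 5 arrays.

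Among the signalling genes, Ppp1r1b and Rgs9 spread widely over the arrays. The 3′ probe of Ppp1r1b read 9.81, 10.12 and 11.17 (lowest, median, highest) in ethanol-treated mice and 10.03, 10.23 and 10.62 in controls. Rgs9 read 7.56, 7.87 and 9.63 in ethanol-treated mice and 7.41, 7.997 and 8.57 in controls. In both genes 1 array, A13, held the top value with a wide gap to the next. The other Ppp1r1b probes were dim, with the probe at position 1281 detected on 26 arrays and the probe at position 16 on 6, and Pde10a was detected on 12 (8 ethanol-treated and 4 control). The 6 probes of Drd1a, Ppp1r1b (2), Rgs9, Tac1 and Scn4b that were detected on at least 24 arrays were tested, and the remaining 3 probes were not.

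The peptide gene Tac1 read 8.05, 8.37 and 8.97 in ethanol-treated mice and 8.12, 8.37 and 8.67 in controls, with medians that differed by far less than the spread in either group. The sodium channel subunit gene Scn4b read 9.51, 10.08 and 10.72 in ethanol-treated mice and 9.61, 9.98 and 10.33 in controls. The ranges of the groups overlapped for all 9 probes, and the share of all probes for which they do was not counted.

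**Figure D1:**
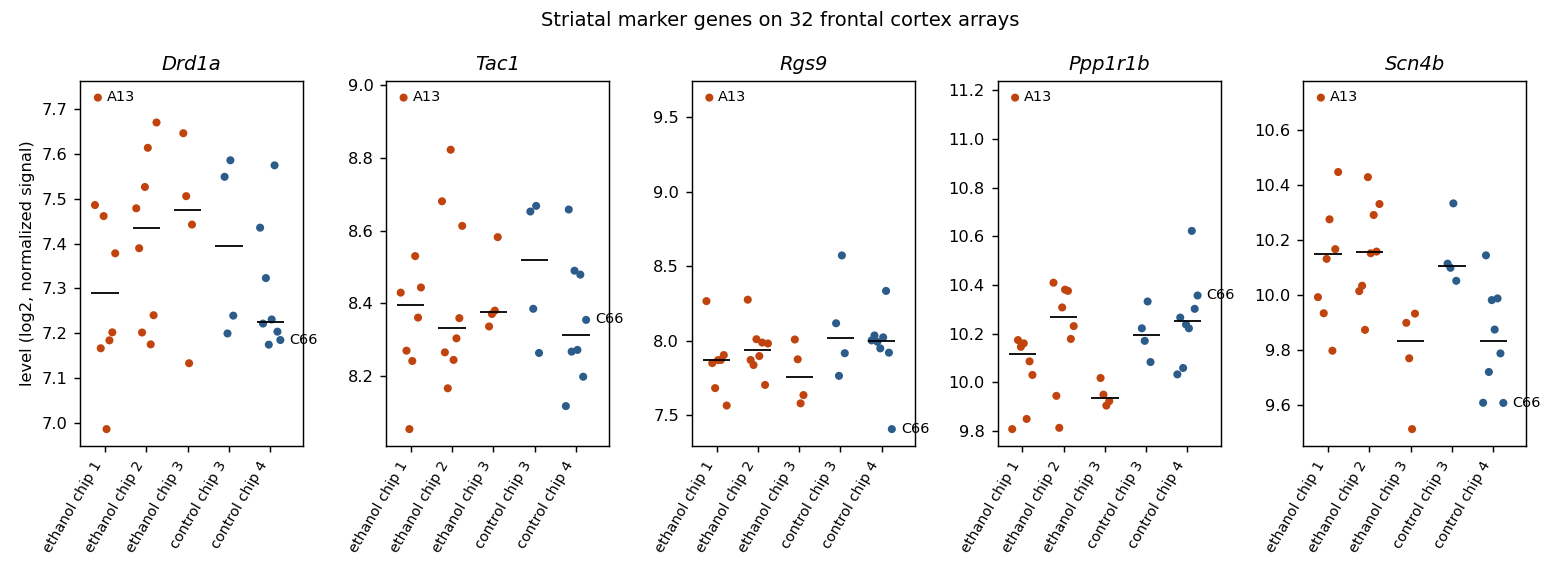
Level of the 5 tested genes on each of the 32 arrays (log2 of the normalized signal, 1 point per mouse, brightest tested probe of a gene, separate vertical scale per gene), grouped by treatment and chip, with a black line at each median. Array A13 is the top point in every panel, at 9.63 for Rgs9 and 11.17 for Ppp1r1b, and C66 is the lowest for Rgs9 at 7.41.

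Array A13, an ethanol-treated mouse at position B of chip 1, had the highest of the 32 values for all 5 tested genes. It was the highest array for 3.19% of the 7926 genes tested, where an equal split over arrays gives 3.13%, and the median of all genes on it differed from that of the other ethanol-treated mice by -0.01 on the log2 scale. These values describe 1 array and carry no test. Rgs9 on A13 stood 1.76 above the median of the other 19 ethanol-treated mice on the log2 scale (3.39-fold), and no other gene of the 7926 rose as far there. Before normalization its signal was 1016 against a median of 330. Ppp1r1b stood 1.08 above by its 3′ probe (2.12-fold), which ranked 8 among all genes. Scn4b stood 0.68 above (1.61-fold) and Tac1 0.60 above (1.52-fold), and Drd1a, with the smallest difference, stood 0.34 above (1.26-fold).

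Of all genes tested, 50 (0.631%) were more than 0.5 above the median on A13 and 10 (0.126%) more than 1 above, among them 4 and 2 of the 5 striatal marker genes. The probes not tested, and the second Ppp1r1b probe, moved less. Pde10a was highest on A13 as well, at 7.14 against 6.61 to 7.08 in the other ethanol-treated mice, while Adora2a differed by 0.02 and the other Ppp1r1b probes by 0.16 and 0.17, with higher values on other arrays. The 3′ probe and the other Ppp1r1b probes read A13 differently, and the latter lay close to the detection limit on most arrays.

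Other genes of striatal projection neurons showed smaller differences on A13. Of 32 such genes outside the set, 29 had a probe and 13 were tested, and their median difference on A13 was 0.09, between -0.33 and 0.46, with A13 highest of 32 for 3 of them. Those were Gng7, a G protein gamma subunit, at 0.46, Rarb, a retinoic acid receptor, at 0.33, and Pde1b, a calmodulin-dependent phosphodiesterase, at 0.26. Meis2, a transcription factor, was at -0.33 and Ptpn5, a striatum-enriched tyrosine phosphatase, at -0.16. A further 11 of the 29, among them Drd3, Gpr6, Gnal and Adcy5, were detected on 0 arrays. The 13 tested are thus the listed genes that were readily detected in cortical tissue. The summed level of the 13 was 14.53 on A13 (log2 of the sum), inside the range of 14.39 to 14.56 of the other ethanol-treated mice, whereas that of the 5 striatal marker genes was 12.42 against 11.20 to 11.79. A sum is carried by the brightest probes. The mean level of the same 13 genes was 9.86 on A13, the highest of the 32 arrays, against 9.69 to 9.81 in the other ethanol-treated mice and 9.61 to 9.81 in controls.

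Myelin genes, which mark the oligodendrocytes of white matter, moved with the striatal marker genes on A13. All 9 tested of 12 listed were above the median of the other ethanol-treated mice, by 0.75 to 1.41 with a median of 1.03, and A13 was the highest of 32 arrays for 8 of them, all but Mog. Their summed level was 15.54 on A13 against 14.33 to 15.06 in the other ethanol-treated mice and 14.21 to 15.24 in controls. Olfactory bulb genes moved the other way, with all 5 tested of 8 below the median and a median difference of -1.20, and a summed level of 9.29 against 9.18 to 12.27. Cortical excitatory neuron genes had a median difference of 0.06 over 10 tested genes, GABAergic interneuron genes -0.13 over 9, and blood genes 0.10 over 2. Single genes of these lists lay far from the medians. Ctgf, a deep-layer gene, stood at 0.78 and Tle4 at 0.35, both highest on A13. On the interneuron list Calb2 stood at -2.16 and Reln at -0.63. Calb2 read 9.10 on A13, within the range of 8.93 to 12.44 in the other ethanol-treated mice. Others lay nearer 0, such as Tbr1 at -0.06 and Fezf2 at 0.09. Of the 10 cortical genes 6 were above the median of the other ethanol-treated mice, and of the 9 interneuron genes 2, Sst at 0.17 and Pvalb at 0.23. None of the choroid plexus or striatal cholinergic genes was tested. The part of these cell types in the values of A13 was not tested.

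**Figure D2:**
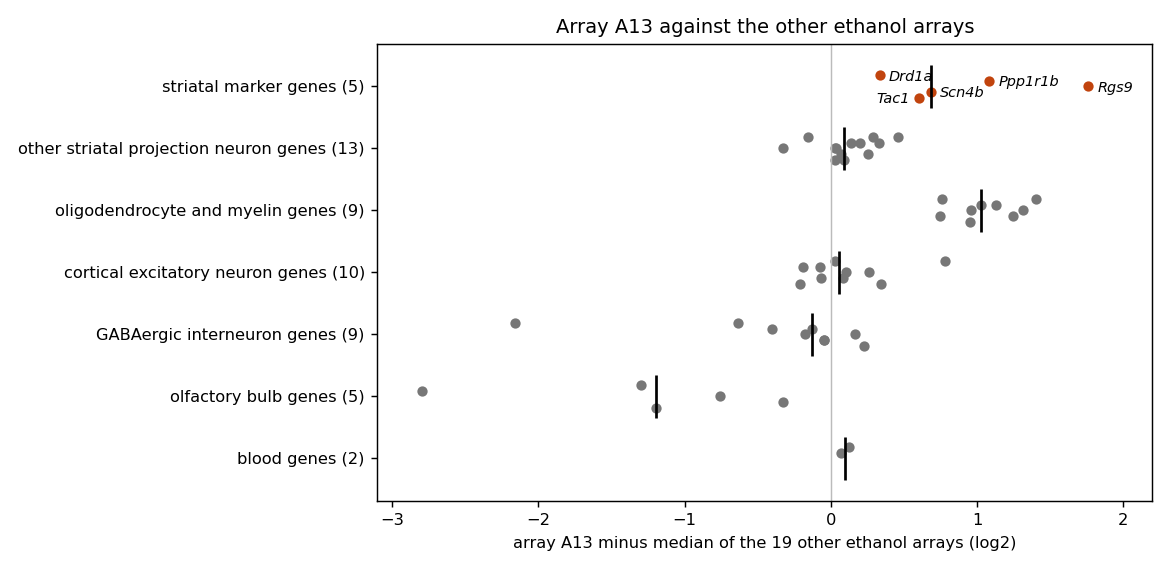
Log2 difference between array A13 and the median of the 19 other ethanol-treated mice for each tested gene, 1 point per gene, by gene list with the number of tested genes in brackets and a black line at each list's median. The 5 striatal marker genes lie between 0.34 and 1.76, the myelin genes between 0.75 and 1.41 and the olfactory bulb genes between -2.79 and -0.33.

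Without A13 the spread of these genes in ethanol-treated mice came down to near that in controls, except for Rgs9, where it came down below it. The SD of Rgs9 was 0.44 over 20 ethanol-treated mice and 0.19 over 19, against 0.28 in controls, so that 80.0% of the variance was lost with this 1 array. For Ppp1r1b the SD was 0.31 with and 0.20 without A13, a loss of 59.7%, against 0.16 in controls. The loss was 29.4% for Tac1, 24.2% for Scn4b and 10.5% for Drd1a. The median SD of the 5 genes without A13 was 0.20, against 0.15 over all probes tested. Among controls Rgs9 was lowest on C66, at 7.41, with the other controls at 7.76 or above.

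The question of the series was whether ethanol drinking changed expression in the FCtx. None of the 5 striatal marker genes was called between the groups (limma, 20 against 12 arrays). The strict rule for a call was an FDR below 1%, which 7.62% of all genes tested met, and the wider rule was an FDR below 10% together with a difference of 1.1-fold or more, which 20.3% met. At an unadjusted p below 0.05 the count was 0 of 5 as well, and 2434 of 7926 over all genes. The log2 difference of ethanol-treated mice minus controls was 0.15 for Scn4b (SE 0.09, limma adjusted p = 0.233) and -0.10 for Ppp1r1b (SE 0.09, limma adjusted p = 0.464). It was 0.05 for Drd1a, 0.02 for Tac1 and -0.04 for Rgs9, with 95% confidence intervals of -0.08 to 0.19, -0.13 to 0.17 and -0.29 to 0.22. The second tested Ppp1r1b probe gave 0.10, opposite in sign to the 3′ probe, with an interval of -0.04 to 0.23. The median difference of the 5 genes was 0.02, and that of all genes tested -0.01. Chips 1 and 2 held only ethanol-treated mice and chip 4 only controls, so that over these chips treatment and chip cannot be told apart.

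Leaving out A13 brought 1 gene past the wider rule. Ppp1r1b then differed by -0.15 (SE 0.06, limma adjusted p = 0.0954), where 19.9% of all genes tested were called, and 5 of 19 ethanol-treated mice lay above the control median. Rgs9 moved to -0.13 (SE 0.08, limma adjusted p = 0.283). When C66 was left out too, it was Rgs9 that passed the wider rule, at -0.18 (SE 0.07, limma adjusted p = 0.0949), while Ppp1r1b, at -0.14, did not (limma adjusted p = 0.151), with 16.5% of all genes called. Whether either gene was called thus changed with A13 and with C66.

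Of the 13 other striatal projection neuron genes tested, 3 were higher in ethanol-treated mice by the wider rule and none was lower, where 668 of all 7926 genes were called higher and 938 lower. They were Bcl11b, a transcription factor, by 0.28 (SE 0.09, limma adjusted p = 0.0219), Kcnip2, a potassium channel subunit, by 0.22 (SE 0.08, limma adjusted p = 0.0321), and Rgs4, another regulator of G protein signalling, by 0.22 (SE 0.07, limma adjusted p = 0.018). The median of the 13 was 0.03.

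Chip 3 is where both groups met on 1 chip, and there 2 of the 5 striatal marker genes were lower in ethanol-treated mice by the wider rule (15.5% of all genes tested were called) and 0 at an FDR below 1% (2.55%). Scn4b read 9.90, 9.77, 9.51 and 9.93 in the ethanol-treated mice A46, A47, A49 and A50 and 10.11, 10.10, 10.33 and 10.05 in the controls C52, C54, C55 and C56. Every control lay above every ethanol-treated mouse, and the share of all genes separated in this way was not counted. The difference was -0.37 (SE 0.10, limma adjusted p = 0.0287). Ppp1r1b read 10.02, 9.95, 9.90 and 9.92 in the same ethanol-treated mice and 10.22, 10.17, 10.33 and 10.08 in the same controls, again without overlap, and differed by -0.25 (SE 0.08, limma adjusted p = 0.052). Rgs9 read 8.01, 7.87, 7.58 and 7.63 against 8.12, 7.76, 8.57 and 7.92, with overlap, and its difference of -0.32 (SE 0.14) did not pass (limma adjusted p = 0.164). It was -0.16 without C55 and -0.43 without C54, where Rgs9 passed the wider rule (limma adjusted p = 0.0927). Tac1 and Drd1a differed by -0.07 and 0.04.

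Leaving out each of the 8 arrays of chip 3 in turn gave between 1 and 3 genes called by the wider rule. The count was 1 when A47, A49 or C55 was left out and 3 when C54 was left out. Of all genes tested, 8.91% to 15.9% were called in these fits. On this chip treatment and odd or even position cannot be told apart. Among the 24 mice of the other chips, where position varies within treatment, Scn4b and Tac1 were both lower at odd positions, by 0.20 each on the log2 scale (SE 0.08, limma adjusted p = 0.0961 and 0.093, with 17.2% of all genes called by the wider rule and 2.67% by the strict one, which called neither). Without A13, which sat at an even position, both were lower by 0.15. Then 0 of 5 genes were called, where the wider rule called 17.9% of all genes. The lists moved on chip 3 too. Of the 9 myelin genes tested 6 were lower in the ethanol-treated group by the wider rule, the median of the list being -0.38, and of the 5 olfactory bulb genes 4 were higher, their median being 0.89. Of all 7926 genes 608 were called lower and 623 higher. The mean level of the olfactory bulb genes was 8.13 to 8.57 in the ethanol-treated mice and 7.05 to 7.88 in the controls of chip 3. Their part in the values of Scn4b and Ppp1r1b was not tested.

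Scn4b differed in opposite directions on chip 3 and over the other chips. Between the 16 ethanol-treated mice of chips 1 and 2 and the 8 controls of chip 4 it was higher by 0.33 (SE 0.09, limma adjusted p = 0.00787), where 10.6% of all genes were called at an FDR below 1%. The difference on chip 3 minus that over the other chips was -0.70 (SE 0.17, limma adjusted p = 0.0069, with 2.95% of all genes called at an FDR below 1%), and -0.67 without A13 (SE 0.15, limma adjusted p = 0.00509). Within the control group, too, Scn4b was higher on chip 3 than on chip 4, by 0.31 (SE 0.10, limma adjusted p = 0.0492, with 18% of all genes called by the wider rule and 3.14% by the strict one) and by 0.28 without C66. For the other 4 genes the difference between chip 3 and the rest did not pass either rule. Between chips 1 and 2, both of ethanol-treated mice, none of the 5 genes was called, where 1.56% of all genes were called by the wider rule and 0% at an FDR below 1%, and 0 had an unadjusted p below 0.05.

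**Figure D3:**
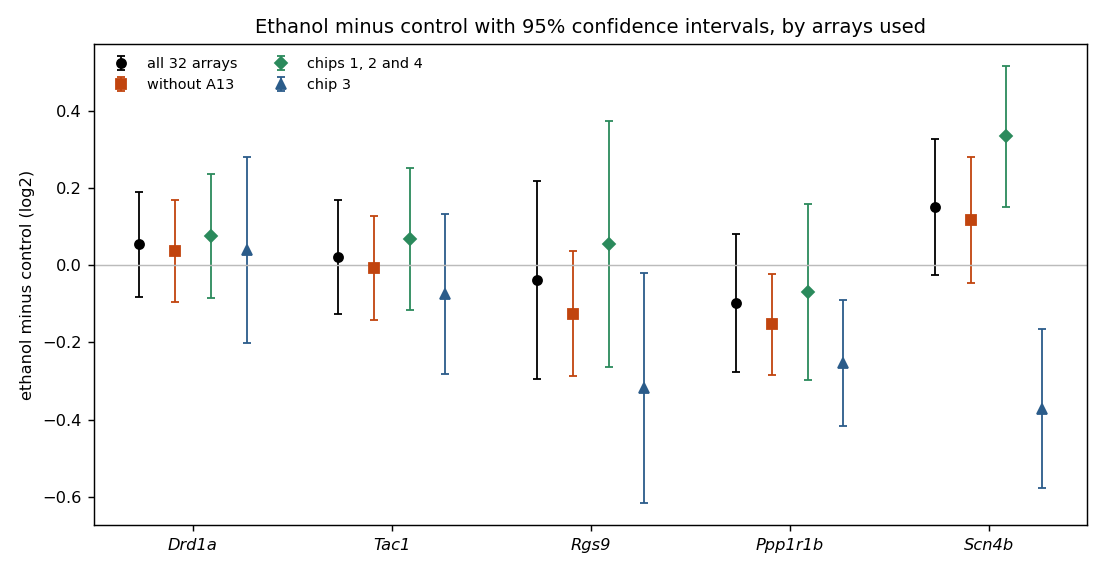
Log2 difference of ethanol-treated mice minus controls for the 5 tested genes with 95% confidence intervals from limma, by the arrays used: all 32, 31 without A13, the 24 of chips 1, 2 and 4, and the 8 of chip 3. Scn4b is at 0.33 over chips 1, 2 and 4 and at -0.37 on chip 3, and over all arrays every interval includes 0.

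Within each group the striatal marker genes tended to rise and fall together from mouse to mouse. Over 20 ethanol-treated mice the 10 pairs among the 5 genes had a median Pearson correlation of 0.50, from 0.34 to 0.78, and the median over all pairs of tested genes was -0.0004. Without A13 the median fell to 0.23, from 0.11 to 0.59, and 1 of the 10 pairs lay above the 90th percentile of all pairs, 0.34. Ppp1r1b with Rgs9, the highest pair with A13 (r = 0.78, p = 0.00665, rho = 0.44, p = 0.0558, two-sided permutation tests; adjusted over 10 pairs 0.0222 and 0.149), fell to r = 0.27 without it (p = 0.259). It rests on that array. Ppp1r1b with Scn4b remained, at r = 0.59 (p = 0.00699) and rho = 0.63 (p = 0.00442) over 19 mice by permutation tests, adjusted over 10 pairs to 0.0699 and 0.0442, and at r = 0.70 without the 2 mice farthest from the median of Ppp1r1b.

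Over the 12 controls all 10 pairs were also positive by Pearson correlation, with a median of 0.42. Of them, 3 lay above the 90th percentile of all gene pairs, 0.48. Under median scaling the median of the 10 pairs was 0.82, but that of all gene pairs was then 0.57. Tac1 with Scn4b was highest (r = 0.78, p = 0.00321, rho = 0.76, p = 0.00587, permutation tests, adjusted over 10 pairs 0.0161 and 0.0294), and r was 0.66 without the 2 mice farthest from the median. Drd1a with Rgs9 followed at r = 0.77 (p = 0.00019) and rho = 0.78 (p = 0.00383) by permutation tests, adjusted to 0.0019 and 0.0294, with r = 0.52 without the farthest 2 mice. Other pairs were less steady. Drd1a with Ppp1r1b had rho = -0.03, and r = -0.42 without the farthest 2 mice. Rgs9 with Scn4b fell from r = 0.61 to 0.03 without them, while Rgs9 with Tac1 was at 0.46 and 0.36. Centring each gene within chip gave medians of 0.55 over ethanol-treated mice, 0.27 without A13 and 0.45 over controls.

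Several of the genes most like the set over the arrays belong to myelin. Likeness was measured as the Pearson correlation with a score, the mean of the 5 genes' standardized values, after centring within chip and treatment, and serves as a description. Over the 31 arrays without A13 the 10 most similar genes were Tspan2 (0.83), Mag (0.83), Mog (0.80), Rprm (0.80), Trf (0.77), Bcas1 (0.76), Rap1gap (0.72), Ugt8a (0.71), Prr18 (0.71) and Mal (0.71), of which 4 are on the myelin list used here. Mag and Mog are surface proteins of myelin, Mal is a proteolipid of it, and Ugt8a makes its galactolipids, whereas Rap1gap turns off the small GTPase Rap1. With A13 included, 7 of these 10 were again among the 10 most similar, joined by Fa2h, Cldn11 and Mbp. The 13 other striatal genes had a median correlation of -0.13 with the score over 31 arrays, where all genes had -0.01, and 0 of them exceeded the 90th percentile of 0.30. With A13 the median was 0.03 and 4 of 13 exceeded it, with Gng7 at 0.61 against 0.28 without A13.

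Each gene was then set against the mean level of the 9 tested myelin genes and of the 5 tested olfactory bulb genes, 10 relations per group. In controls Rgs9 rose with the myelin mean (r = 0.82, p = 0.0011, rho = 0.78, p = 0.00394, permutation tests, adjusted 0.0064 and 0.0233, r = 0.54 without the 2 farthest mice). Scn4b did so at r = 0.81 (p = 0.00128) and rho = 0.77 (p = 0.00465) by permutation tests, adjusted to 0.0064 and 0.0233, and Tac1 at r = 0.78 (p = 0.00265) and rho = 0.75 (p = 0.00702), adjusted to 0.00883 and 0.0234. Without the 2 farthest mice these were 0.63 and 0.81. Drd1a had r = 0.64 and Ppp1r1b r = 0.35, and neither passed the adjustment. In ethanol-treated mice r lay between 0.60 and 0.84 for the 5 genes with A13 and between 0.45 and 0.61 without it, where Ppp1r1b had r = 0.61 (p = 0.00453) and rho = 0.51 (p = 0.0269) by permutation tests, adjusted to 0.0229 and 0.0671. Centred within chip, that r was 0.41. Rgs9 had r = 0.57 (p = 0.0118) and rho = 0.56 (p = 0.0155) without A13 by permutation tests, adjusted to 0.0393 and 0.0517, and r = 0.52 centred within chip. Without A13 the r of Drd1a, Tac1 and Scn4b did not pass (permutation tests, adjusted p = 0.064, 0.0678 and 0.0721). Tac1 then had rho = 0.20. Without the 2 farthest mice r was 0.52 for Drd1a, -0.13 for Tac1 and 0.43 for Scn4b. Centred within chip it was 0.54, 0.52 and 0.33 for these genes.

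Scn4b was lower in ethanol-treated mice with more RNA of olfactory bulb genes, with and without A13. For Ppp1r1b r was -0.59 with A13 (p = 0.00555, rho = -0.51, p = 0.0219, permutation tests, adjusted 0.00793 and 0.0365) and -0.47 without it (p = 0.0407, permutation test, adjusted 0.0678). Over ethanol-treated mice without A13 the correlation of Scn4b was r = -0.62 (p = 0.00457) and rho = -0.65 (p = 0.0035) by permutation tests, adjusted over 10 relations to 0.0229 and 0.035, and r = -0.52 without the 2 farthest mice. Over controls it was -0.32 (p = 0.304, permutation test), and -0.69 without C66 (p = 0.0195, adjusted 0.0487; rho = -0.76, p = 0.00834, adjusted 0.0417). For the other genes the sign varied. Over controls r was -0.06 for Ppp1r1b, -0.42 for Tac1, 0.31 for Drd1a and 0.42 for Rgs9. In ethanol-treated mice without A13 it was -0.14 for Drd1a, -0.09 for Rgs9 and -0.23 for Tac1. None of these passed the adjustment. C66 was lowest of all 32 arrays in the olfactory bulb mean and in the myelin mean.

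**Figure D4:**
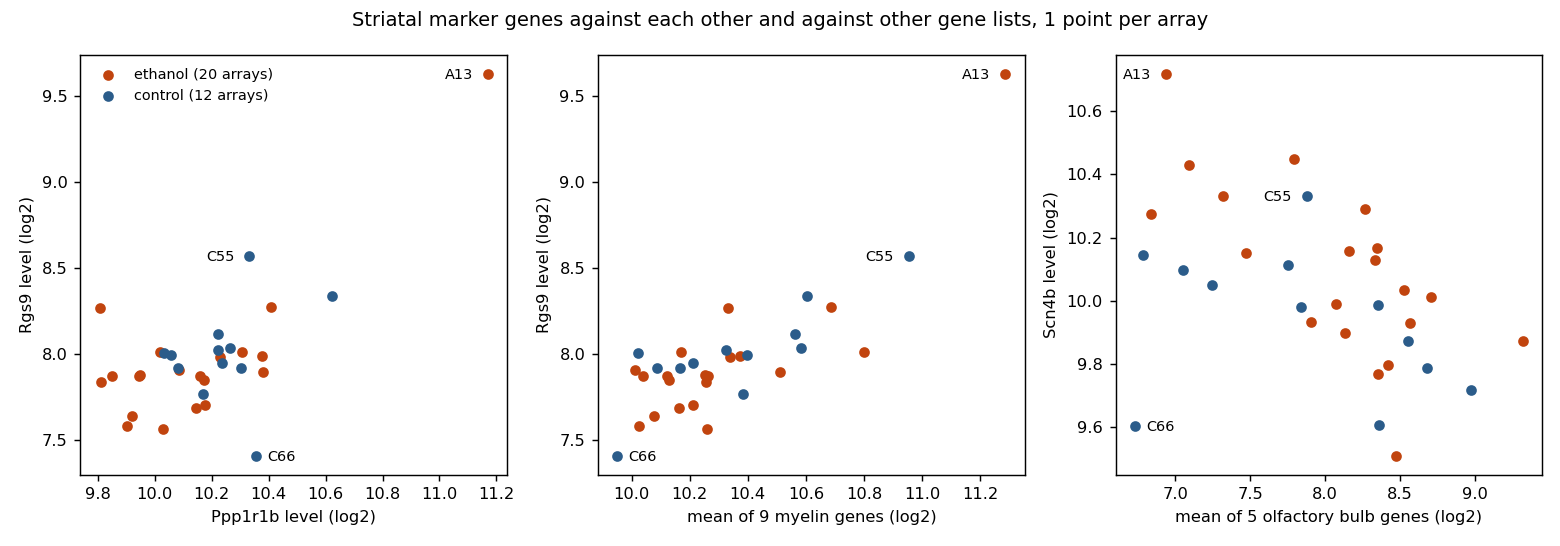
Rgs9 against Ppp1r1b, Rgs9 against the mean of 9 myelin genes and Scn4b against the mean of 5 olfactory bulb genes, 1 point per array, all on the log2 scale, ethanol-treated mice in red and controls in blue. A13 stands alone at the upper right of the first 2 panels, and the control with the highest Rgs9 level, C55 at 8.57, also has the highest myelin mean among controls, 10.95.

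The same 3 mice led in the mean levels of the striatal marker genes and of the myelin genes. The mean of the 5 striatal marker genes was highest on A13 (9.64), then on C55 (9.10), A41 (9.02) and C65 (8.999), and the mean of the myelin genes was 11.29, 10.95, 10.80 and 10.60 on these mice, with A28 at 10.69 between the last of them. The leading 3, A13, C55 and A41, come from both groups and from chips 1, 3 and 2.

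The promoters of the set were also searched for motifs, as a description. RefSeq promoters (GRCm38.p6, 250 bases before a start) were given for 5 of the genes, in 7 entries. These were Drd1a, Tac1, Rgs9, Scn4b and Pde10a. Pde10a was not among the genes correlated above, and Ppp1r1b, which was, had no entry. The letters GGGCGG of the GC box were found in 4 of the 7 entries (32.7% of all promoters) and CCAAT in 4 (33.9%), on either strand. Of the 5 genes only Tac1 held the short core of the cyclic AMP response element, TGACG or its complement CGTCA, with 2 matches, and none held the full element TGACGTCA. Over all 32851 promoters of that length, searched on both strands, 17.8% held the core and 1.55% the full element, of which the core is part. The Tac1 promoter lies on the plus strand of chr6:7554811-7555060 and is shown because it is the one with matches, in capitals:
Tac1 promoter: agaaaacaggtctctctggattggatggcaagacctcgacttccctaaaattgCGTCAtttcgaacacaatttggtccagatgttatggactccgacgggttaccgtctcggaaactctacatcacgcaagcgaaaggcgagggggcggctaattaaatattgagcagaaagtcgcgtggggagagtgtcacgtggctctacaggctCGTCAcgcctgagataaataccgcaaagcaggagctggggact
A match describes the letters of this stretch and not a bound site.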

How the data were processed

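The authors deposited a bead summary table of 32 arrays with 4 columns per array: signal intensities on a linear scale that are not normalized between arrays, detection p-values, and 2 other values for each probe, its bead standard error and bead number. The deposited p-values compare a probe with control beads. The software and background step behind the deposited intensities are not given in the sources used here. Columns were matched to mice through the labels, with chip and position, and 0 columns were left without a sample. The submitters' processing notes name lumi and limma for the study's own processing. The labels do not say more about separate mice than their numbers, and the RNA extraction batches are not given there.

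From the intensities, a variance-stabilizing transform was computed from the bead standard errors (lumi itself was not used), followed by quantile normalization, so levels and differences are on a log2 scale that is compressed for dim probes. Probes with detection p below 0.01 on at least 24 of 32 arrays (75%) were tested, 10187 probes for 7926 genes, with limma 3.58.1 in R 4.3.3 and Benjamini-Hochberg adjustment over all of them. A gene was counted by its brightest tested probe, and was called at an FDR below 1%, or by the wider rule at an FDR below 10% and a difference of 1.1-fold or more. Descriptions, permutation tests (two-sided, 100000 resamples) and figures used Python 3.11.15 with numpy 2.4.6, pandas 2.3.3, scipy 1.17.1 and matplotlib 3.10.9.

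The marker genes, gene lists, array A13 and tests were chosen with earlier results of these data known. Named genes are the members, the other striatal genes, the 10 genes most correlated with the members' score with and without A13, and Drd2. Other genes are named where a list is described, and were chosen after their values were seen.

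Alternatives were plain log2 signals, normexp background correction, median scaling, every probe, probes detected everywhere, chip as fixed or random block, the fixed block with position, array weights, the lowest p of a gene, and leaving out A13 or single arrays of chip 3. Chosen after seeing the data were leaving out C66, fitting chips 1, 2 and 4 alone, a covariate for odd or even position, and the difference between chip 3 and the other chips. On simulated data with 200 of 10187 probes changed by 0.3 on the log2 scale, the comparison of all ethanol-treated mice with controls recovered 165 (82.5%) at an FDR of 1%, with 3 false calls, and the comparison on chip 3 recovered 0. The number of arrays limits the precision.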

Additional observations from a re-analysis of the deposited data

Results flagged for a closer look

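Outlying arrays were looked for with Dixon's ratio, the gap of an extreme array to its neighbour over the range of its set, for 6 probes in the 5 sets of arrays that share chip and treatment, 30 sets in all. Chance flags about 1 set in 20, and 3 exceeded the 95% critical value. A13 was chosen with earlier results known and the genes vary together, so its 2 flags restate what is known of that array and are no independent test. Among the 8 ethanol-treated mice of chip 1, A13 was the highest for the 3′ probe of Ppp1r1b (ratio 0.731) and for Rgs9 (ratio 0.661). Among the 8 controls of chip 4, C66 was the lowest for Rgs9 (ratio 0.553), the array that also had the fewest detected probes of all 32, 9480.

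For Scn4b, the ethanol-treated minus control difference on chip 3 minus the same difference over the other chips was -0.704 on the log2 scale, past an FDR of 1% in a test of the difference itself (limma adjusted p = 0.0069). It was higher in ethanol-treated mice over the other chips and lower on chip 3.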

How the results depend on the processing

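No paired analysis was possible because the mouse numbers of the 2 groups do not overlap. Over all arrays the count of striatal marker genes called was 0 at an FDR below 1% and 0 by the wider rule. The count at an FDR below 1% became 1 over chips 1, 2 and 4 (Scn4b), where 10.6% of all genes were called. By the wider rule it became 1 without A13 (Ppp1r1b, 19.9% of all genes called) and 1 without A13 and C66 (Rgs9, 16.5%). It was also 1 over chips 1, 2 and 4 (Scn4b, 28.8%). With odd or even position as a covariate it was 1 (Scn4b, 0.23, limma adjusted p = 0.0298), where 20.8% of all genes were called. On chip 3, leaving out single arrays gave 1 to 3 genes by the wider rule, which called 8.91% to 15.9% of all genes. It gave 0 at an FDR below 1% each time, where 0.492% to 3% of all genes were called. Among odd and even positions the count by the wider rule went from 2 to 0 without A13, with 17.2% and 17.9% of all genes called.

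With chip as a fixed block the ethanol difference rests on chip 3 alone, and it reversed for Scn4b (-0.37, limma adjusted p = 0.14), the second Ppp1r1b probe (-0.14) and Tac1 (-0.075). With position as a further covariate it was -0.18 for Scn4b and -0.081 for the second Ppp1r1b probe. Rgs9 reversed to 0.055 over chips 1, 2 and 4 and to 0.020 under median scaling, where the median of the 5 genes was 0.10. Tac1 reversed to -0.00026 with chip as a random block, to -0.0081 without A13 and to -0.012 without A13 and C66. On chip 3 the difference of Drd1a ranged from -0.033 to 0.14 when single arrays were left out (-0.026 without C54, -0.013 without C56, -0.033 without A46). Without A13, chip 1 minus chip 2 reversed to -0.087 for Rgs9 and -0.054 for Scn4b, and odd minus even position reversed to 0.087 for Rgs9. None of these reversed values passed a rule, and the cause was not tested.

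The excess of A13 in Rgs9 was 1.47 on the plain log2 scale and 2.05 after normexp, and in the second Ppp1r1b probe 0.33 after normexp. Median scaling raised the median correlation of the 10 pairs to 0.41 in ethanol-treated mice without A13 and to 0.82 in controls, and that of all gene pairs from near 0 to 0.21 and 0.57. Of the remaining values under alternatives, 88 counts, excesses and correlations and 162 differences of single probes kept their direction and their side of the threshold or stayed within the spread between mice. Probes near the detection limit (Adora2a, Pde10a and the dim Ppp1r1b probes) allow no statement on small differences. The Drd1a probe, although detected on all 32 arrays, was dim as well.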
